A study of Homo sapiens with 12 samples.

Results

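The 10 histone lysine demethylase genes KDM3A, KDM3B, KDM4A, KDM4B, KDM4C, KDM5A, KDM5B, KDM6A, KDM6B and KDM7A were followed in the human T-cell line CUTLL1. This line carries an activated NOTCH1 gene. The 10 genes were taken by symbol, as 10 of the 62069 Ensembl gene identifiers in the deposited table. The choice of these 10 was made with earlier results of the same data known, so their counts below describe genes picked with results in view. All 10 passed the filter on low values (3 or more libraries with a value of 10 or more), as did 19281 genes in all. Poly-A RNA was sequenced from 12 libraries in 4 groups of 3. The libraries labelled GSI 12 h and GSI 48 h came from cells given 1 µM of the gamma-secretase inhibitor (GSI) Compound E, which blocks the protease that releases active NOTCH1, and harvested 12 or 48 h later. The libraries labelled DMSO 12 h and DMSO 48 h came from cells given the solvent for the same times. Group names below are those of the labels. A single cell line was used, and the labels do not say whether libraries of a group came from separate cultures, and the spread behind each p-value is therefore that between libraries, which may be technical.

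Histone lysine demethylases remove methyl groups from lysines of histone tails. The 10 genes encode enzymes of the Jumonji type, which use molecular oxygen, iron and 2-oxoglutarate, so that their activity depends on oxygen and on metabolites of the citric acid cycle. KDM3A and KDM3B act on lysine 9 of histone H3 (H3K9), the KDM4 enzymes on methylated H3K9 and H3K36, the KDM5 enzymes on H3K4, the KDM6 enzymes on H3K27 and KDM7A on H3K9 and H3K27. Several of these genes, KDM3A and KDM4B among them, are known from other cells as genes induced under low oxygen. In T-cell leukaemia KDM6B is known as a cofactor of NOTCH1 and KDM6A as a tumour suppressor.

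Recovered depth was 73939612 to 160702764 reads per library, and the members were well covered, with 1384 reads in the lowest member and library (KDM7A) and 37414 in the highest (KDM3B). All 11 T-lineage markers were kept, and their summed value was 278703 to 307853 in GSI 12 h, against 319867 to 371588 in DMSO 12 h, and 268623 to 289139 in GSI 48 h, against 294328 to 344511 in DMSO 48 h. Of these markers CD3G (log2 −0.43) and CD1A (−0.36) were called lower in GSI at 12 h, and at 48 h CD1A was called lower (−0.39) and CD247 higher (0.51). Markers of other cells were low, apart from the B-cell gene CD79A. The 6 myeloid genes summed to 214.9 to 450.5 in GSI 12 h, against 396.6 to 543.1 in DMSO 12 h, and 200.8 to 229.1 in GSI 48 h, against 262.4 to 379.2 in DMSO 48 h, with CD14 called lower at 12 h (−1.18). The 4 erythroid genes summed to 12.7 to 37.9 in GSI 12 h, against 5.3 to 12.4 in DMSO 12 h, and 18.6 to 44.6 in GSI 48 h, against 4.5 to 10.4 in DMSO 48 h, with ALAS2 called higher at both times (1.65 and 2.13). Over all libraries the sums were 662.1 to 3042.0 for 5 B-cell genes and 33.1 to 79.6 for 7 fibroblast and epithelial genes. CD79A, the only B-cell gene kept, varied widely between DMSO libraries and was not called at either time. It had 1867, 2511 and 659.5 counts in DMSO 12 h, against 847.4, 1088 and 916.1 in GSI 12 h. At 48 h it had 2001, 3042 and 802.4 in DMSO, against 931.8, 846.2 and 921.7 in GSI. The part of these marker differences in the results below was not tested. MS4A1, CD22, FCGR3A and EPCAM were at 0 in every library.

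The median of 16 NOTCH1 target genes, as log2(value + 1) relative to the mean of all libraries, was 0.34 to 0.69 in GSI 12 h and 0.75 to 1.09 in DMSO 12 h. It was −0.98 to −0.78 in GSI 48 h and −0.90 to −0.38 in DMSO 48 h, so that solvent libraries at 48 h lay below inhibitor libraries at 12 h. Of the 16, 7 were called lower in GSI than in DMSO at 12 h and 3 at 48 h, with 0 higher, while 11 were called lower over time in DMSO and 12 in GSI. Their median log2 fold change was −0.49 at 12 h and −0.35 at 48 h for GSI against DMSO. Over time it was −1.72 in DMSO and −1.40 in GSI. This pattern leaves the time and treatment labels in doubt, and each comparison below is between libraries as labelled. The GSI libraries numbered 2 at both times stood apart from the other GSI libraries in many of the genes described below. They were singled out by the values themselves, so results given without them are descriptions only.

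The stretches before the annotated starts of 4 members are shown first, because they differ in how many copies they hold of ACGTG or GCGTG, the core to which hypoxia-inducible factors are known to bind. The sequences are RefSeq's on GRCh38.p14, 5′ to 3′ on the gene's strand, and stop at the first transcript start that GENCODE 29 places in the 250 bases before RefSeq's start. Capitals mark ACGTG or GCGTG on either strand, and CACGTG, which holds ACGTG on both strands, counts as 2 matches.
KDM7A (chr7:140177036-140177233, minus strand): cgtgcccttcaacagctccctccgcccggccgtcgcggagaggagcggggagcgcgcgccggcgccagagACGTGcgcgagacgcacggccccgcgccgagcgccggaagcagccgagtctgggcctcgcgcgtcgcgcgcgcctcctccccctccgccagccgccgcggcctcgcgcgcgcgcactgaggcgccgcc
KDM4B (chr19:4968863-4969112, plus strand): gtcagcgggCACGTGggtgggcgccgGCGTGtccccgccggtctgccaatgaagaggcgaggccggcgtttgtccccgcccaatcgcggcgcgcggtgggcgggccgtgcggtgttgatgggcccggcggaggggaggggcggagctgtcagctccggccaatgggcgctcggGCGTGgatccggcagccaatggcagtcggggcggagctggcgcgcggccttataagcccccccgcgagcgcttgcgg
KDM4C (chr9:6757723-6757972, plus strand): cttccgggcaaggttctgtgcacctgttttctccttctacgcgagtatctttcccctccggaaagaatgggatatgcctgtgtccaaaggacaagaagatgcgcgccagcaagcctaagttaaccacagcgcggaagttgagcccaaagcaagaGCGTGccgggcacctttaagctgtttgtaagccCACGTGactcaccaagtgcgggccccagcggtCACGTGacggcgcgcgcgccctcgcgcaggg
KDM6A (chrX:44872938-44873176, plus strand): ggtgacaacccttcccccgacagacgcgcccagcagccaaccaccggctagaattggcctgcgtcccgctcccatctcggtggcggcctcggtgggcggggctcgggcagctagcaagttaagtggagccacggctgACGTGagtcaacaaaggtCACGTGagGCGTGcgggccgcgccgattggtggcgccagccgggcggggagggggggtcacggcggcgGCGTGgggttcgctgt

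Over the 250 bases before the RefSeq start, KDM4C and KDM6A each held 5 matches, KDM4B held 4, and KDM7A held 1. KDM3A, KDM4A, KDM5A, KDM5B and KDM6B each held 1 match, all GCGTG, and KDM3B held none of these letters. Of 35116 RefSeq promoters of the same length, 43.2% held at least 1 match, and 9 of the 10 members did. For KDM3A and KDM6B, which have 2 RefSeq entries each, the more upstream entry was used. The other KDM3A entry also held 1 match, but the other KDM6B entry held none, so that with it 8 of the 10 members had a match. The GC content of the 10 windows was 59.2% to 81.6%, against a median of 58.0% over all promoters. TGGGAA, the core known for the NOTCH partner RBPJ, was found in none of the 10 windows used and in 20.8% of all promoters, while the other KDM6B entry held 1 copy. These matches describe the letters only, and KDM6A, with as many as KDM4C, was not called in any comparison.

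Levels can be compared between genes only per length, here as normalised counts per kb of all annotated exons (GENCODE 29). In DMSO 12 h, KDM3B was the most abundant at 3120 ± 179 per kb (SD, n = 3), followed by KDM5A at 1405 ± 33.1, KDM4A at 1150 ± 38.2, KDM3A at 805.3 ± 13.7, KDM6B at 778.5 ± 64.7 and KDM6A at 727.7 ± 25.0. KDM4C (346.0 ± 17.1), KDM4B (286.1 ± 36.7), KDM7A (170.0 ± 29.8) and KDM5B (109.9 ± 20.2) were lower. Neighbours in this order did not overlap between libraries, apart from KDM3A with KDM6B and KDM6B with KDM6A. KDM7A was 9th of the 10 in both DMSO groups and 6th in both GSI groups, at 1019 ± 581 per kb in GSI 12 h and 891.5 ± 467 per kb in GSI 48 h. All annotated transcripts were counted in the length, so that a level per kb is too low where a shorter isoform is the one used. The lengths ran from 5172 bases for KDM4A to 25882 for KDM5B, and the spread between libraries does not cover an error in them. KDM5B had more counts than KDM7A in DMSO 12 h (means of 2844 and 1603) and was lower only per length.

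**Figure D1:**
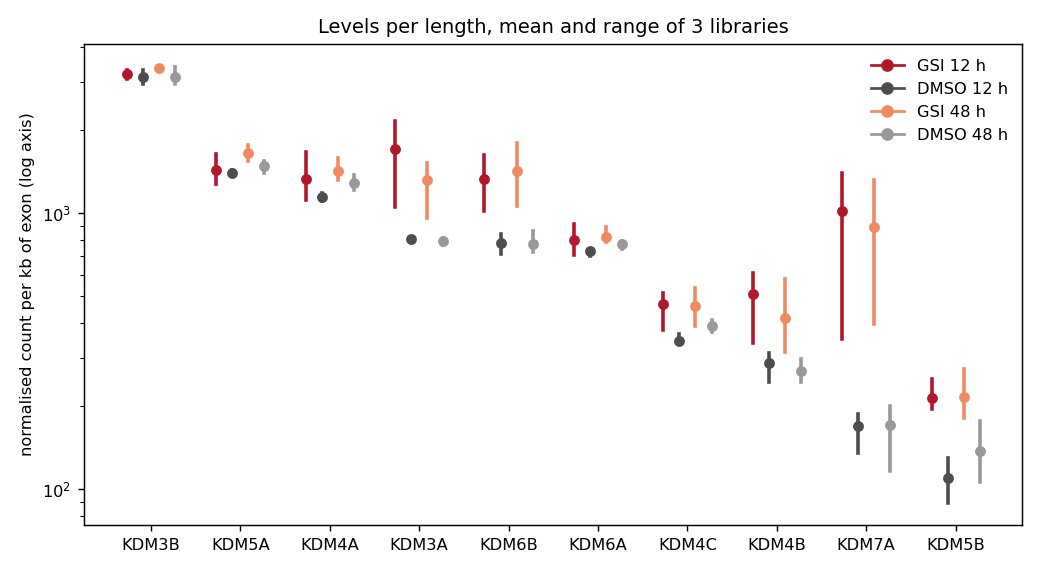
Normalised counts per kb of exon (log axis) for the 10 demethylases, ordered by their level in DMSO 12 h. Dots are means and lines the range of 3 libraries for GSI 12 h, DMSO 12 h, GSI 48 h and DMSO 48 h, from left to right within each gene. KDM3B was highest in every group, and KDM7A was 9th in the DMSO groups and 6th in the GSI groups.

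The libraries labelled GSI were compared with those labelled DMSO at each time. As the labels are in doubt, the differences are not read as effects of the inhibitor. At 12 h, 6 of the 10 demethylases were called higher in GSI and 0 lower, by limma on log2(value + 1) with Benjamini-Hochberg adjustment over all 19281 genes at 0.05, where 21.5% of all genes were called in either direction and 10.1% as higher. The genes called were KDM3A, KDM4B, KDM4C, KDM5B, KDM6B and KDM7A. The same 6 were also those whose GSI 12 h libraries all lay above the DMSO 12 h libraries, which 17.1% of all genes did. All 10 fold changes were above 0, with a median log2 value of 0.59, against 0.0006 over all genes. At 48 h, KDM6B and KDM7A were called higher and 0 lower, against 9.68% of all genes in either direction and 4.33% as higher, 6 members had every GSI library above every DMSO library (16.9% of all genes did), and the median log2 value was 0.41, against −0.0039 over all genes. Other settings called more members at 48 h, 4 with only the GSI 48 h and DMSO 48 h libraries in the fit (12.8% of all genes), 5 with the replicate number as a block (27.3%) and 5 by DESeq2 (16.8%). In bulk RNA, fewer cells of a type and less RNA per cell cannot be told apart.

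**Figure D2:**
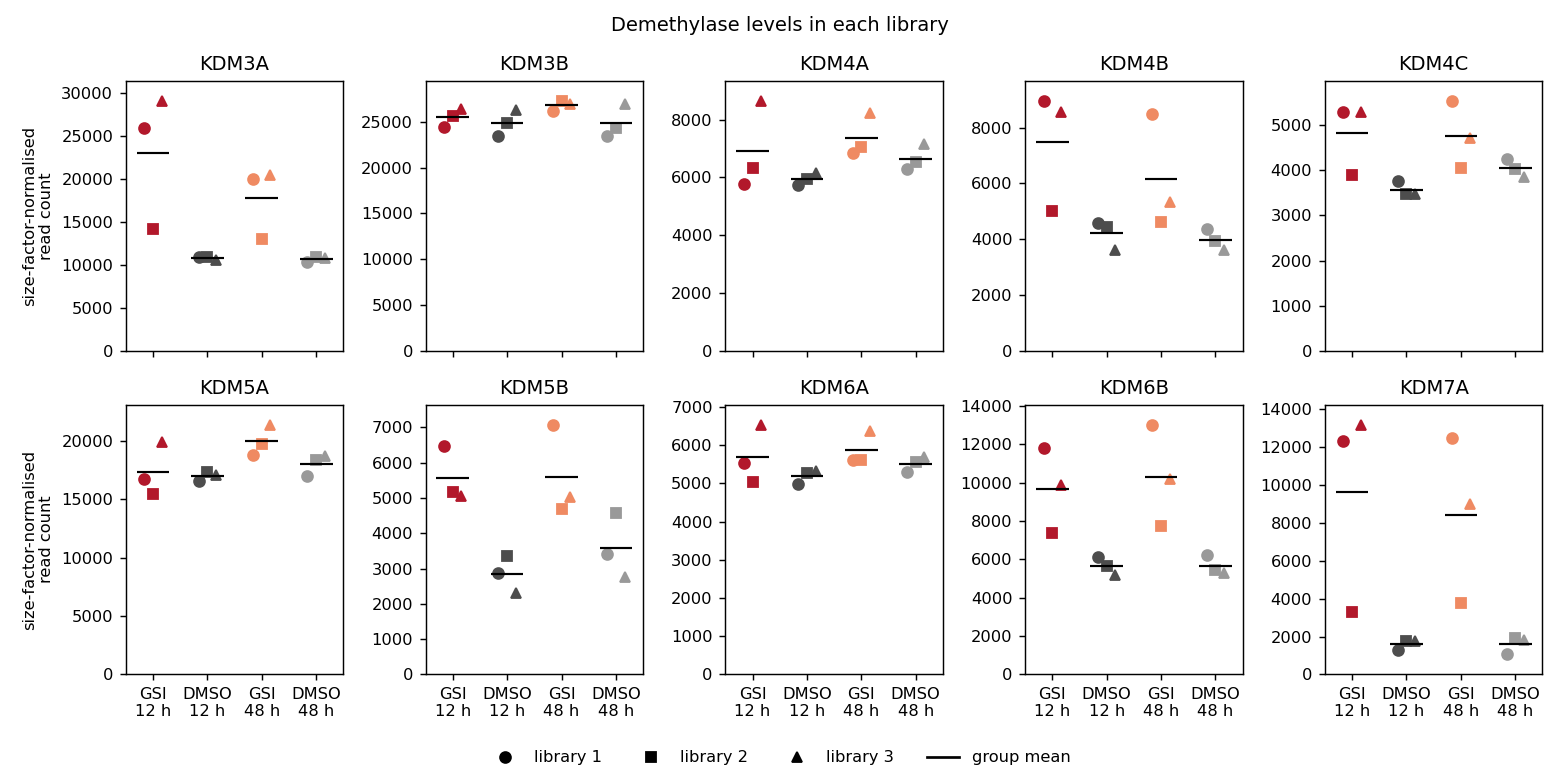
Size-factor-normalised read count of each demethylase in each of the 12 libraries, one panel per gene with its own linear axis from 0. Symbols show the library number within a group, and black lines are group means. In KDM7A, KDM3A and KDM6B the GSI libraries lay above the DMSO libraries at both times, with the GSI libraries numbered 2 the lowest of their groups.

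KDM3A (ENSG00000115548), an eraser of mono- and dimethylated H3K9, had 25934, 14138 and 29078 normalised counts in libraries 1, 2 and 3 of GSI 12 h, against 10893, 10936 and 10598 in DMSO 12 h. In GSI 48 h it had 19973, 12971 and 20483, against 10348, 10906 and 10819 in DMSO 48 h. The GSI libraries were higher than every DMSO library at both times, the library numbered 2 was the lowest of each GSI group, and the DMSO libraries differed little. At 12 h the log2 fold change was 1.03 (SE 0.22, limma adjusted p = 0.00833), and it was called under each of the 21 alternatives. Here and for the genes below, the 21 include fits without a library of the other time, which alter only the shared spread. They also include the fit without both GSI libraries numbered 2. The 48 h value was 0.71 (SE 0.22, limma adjusted p = 0.0597), which misses the threshold. The 48 h difference was called under 8 of the 21 alternatives. It passed with the replicate number as a block (limma adjusted p = 0.0189) and with only the groups compared (0.0169). EdgeR (adjusted p = 0.0469) and DESeq2 (0.0115) also called it. The difference passed too without the GSI 48 h library numbered 2 (0.92, limma adjusted p = 0.0187). It did so without the GSI 12 h library numbered 2 (0.0113) or 3 (0.0400), which enter only the shared spread.

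Its paralogue KDM3B (ENSG00000120733) had 24464, 25622 and 26367 normalised counts in GSI 12 h, against 23397, 24858 and 26254 in DMSO 12 h. At 48 h the values were 26185, 27272 and 26911 in GSI and 23482, 24298 and 26938 in DMSO, and the groups overlapped at both times. The log2 fold changes were 0.04 (95% interval −0.13 to 0.20) at 12 h and 0.11 (−0.06 to 0.27) at 48 h, with limma adjusted p = 0.753 and 0.366. The log2 ratio of KDM3A over KDM3B within a library was −0.21 ± 0.56 in GSI 12 h and −1.20 ± 0.10 in DMSO 12 h (SD, n = 3), and −0.62 ± 0.39 in GSI 48 h and −1.22 ± 0.09 in DMSO 48 h. The ratios did not overlap at either time, with p = 0.1 by a two-sided exact permutation test, the smallest that 3 against 3 libraries allow, and 0.2 when adjusted over the 10 ratio comparisons made.

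Of the KDM4 enzymes, which act on trimethylated H3K9 and H3K36, KDM4B (ENSG00000127663) had 8954, 4992 and 8554 normalised counts in GSI 12 h, against 4588, 4449 and 3592 in DMSO 12 h. The 48 h values were 8485, 4620 and 5312 in GSI and 4362, 3925 and 3600 in DMSO. The groups did not overlap at either time, but the GSI libraries numbered 2 were close to the highest DMSO library. The log2 fold change was 0.79 (SE 0.23, limma adjusted p = 0.0286) at 12 h and 0.59 (SE 0.23, limma adjusted p = 0.112) at 48 h. The 12 h call was lost without the GSI 12 h library numbered 1 (limma adjusted p = 0.122) or 3 (0.09999), or the DMSO 12 h library numbered 2 (0.0669) or 3 (0.0854), and the 48 h difference passed with the replicate number as a block (0.0376) and by DESeq2 (0.0442). Without the GSI 48 h library numbered 1 the 48 h value was 0.33 (limma adjusted p = 0.407).

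KDM4C (ENSG00000107077) had 5294, 3907 and 5304 normalised counts in GSI 12 h, against 3776, 3469 and 3472 in DMSO 12 h. In GSI 48 h it had 5543, 4048 and 4732, against 4244, 4042 and 3847 in DMSO 48 h, and there the groups overlapped. The log2 fold change was 0.42 (SE 0.13, limma adjusted p = 0.0370) at 12 h, the smallest of the 6 called, and 0.23 (SE 0.13, limma adjusted p = 0.260) at 48 h. Its 12 h call was lost without the GSI 12 h library numbered 1 (limma adjusted p = 0.143) or 3 (0.125), without the DMSO 12 h library numbered 1 (0.0556), 2 (0.111) or 3 (0.0862), with no filter on low values (0.0582) and with only the groups compared (0.0635). AL354707.1, a long non-coding RNA on the same strand that covers 1.31% of the KDM4C exons, had 1613, 799.7 and 1586 counts in GSI 12 h, against 510.4, 422.6 and 591.4 in DMSO 12 h. Its values were chosen for display after they had been seen, and how its reads were divided from those of KDM4C was not tested.

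KDM4A (ENSG00000066135), the third KDM4 enzyme, had 5778, 6327 and 8641 normalised counts in GSI 12 h, against 5746, 5952 and 6141 in DMSO 12 h. Its 48 h values were 6853, 7039 and 8211 in GSI and 6290, 6515 and 7142 in DMSO. The groups overlapped at both times, and the GSI libraries numbered 3 were the highest. The log2 fold changes were 0.20 (95% interval −0.08 to 0.48) at 12 h and 0.15 (−0.13 to 0.42) at 48 h, with limma adjusted p = 0.291 and 0.471. The log2 ratio of KDM4B over KDM4A was 0.60 higher in GSI than DMSO at 12 h and 0.44 higher at 48 h, and that of KDM4C over KDM4A was 0.23 and 0.08 higher. These ratios overlapped between groups, with p from 0.2 to 0.8 by the exact permutation test. In GENCODE 29, KDM4A shares 40.2% of its exon length with AL451062.3, a protein-coding gene on the same strand. That gene has no values in the deposited data. KDM4A-AS1, on the other strand, covers 8.97% of the KDM4A exons. Its mean was 363.9 counts in GSI 12 h and 337.8 in DMSO 12 h, and 331.2 in GSI 48 h and 310.1 in DMSO 48 h. How reads of overlapping genes were counted was not tested, so the KDM4A values carry that uncertainty.

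KDM5A and KDM5B remove methyl groups from H3K4, a mark of active promoters. KDM5B (ENSG00000117139) had 6475, 5179 and 5046 normalised counts in GSI 12 h, against 2871, 3354 and 2308 in DMSO 12 h. In GSI 48 h it had 7068, 4676 and 5039, against 3397, 4572 and 2746 in DMSO 48 h. The groups did not overlap at either time, though at 48 h the GSI and the DMSO library numbered 2 were nearly equal. The log2 fold change was 0.98 (SE 0.20, limma adjusted p = 0.00669) at 12 h, called under each of the 21 alternatives. At 48 h it was 0.65 (SE 0.20, limma adjusted p = 0.0543), and it was called under 7 of the 21 alternatives. It passed with the replicate number as a block (limma adjusted p = 0.0164), with only the groups compared (0.0434) and with upper-quartile scaling (0.0373). DESeq2 called it (adjusted p = 0.0177) and edgeR did not (0.0527). The difference also passed without library 2 of GSI 48 h (limma adjusted p = 0.0350) or of DMSO 48 h (0.0493).

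KDM5A (ENSG00000073614), first known as a partner of the retinoblastoma protein, had 16718, 15446 and 19893 normalised counts in GSI 12 h, against 16552, 17337 and 17078 in DMSO 12 h. Its 48 h values were 18797, 19681 and 21347 in GSI, against 16987, 18321 and 18720 in DMSO. The groups overlapped at 12 h, and at 48 h the lowest GSI library lay just above the highest DMSO library. The log2 fold changes were 0.02 (95% interval −0.18 to 0.23) and 0.15 (−0.06 to 0.35), with limma adjusted p = 0.886 and 0.313. The log2 ratio of KDM5B over KDM5A was −1.64 ± 0.31 in GSI 12 h and −2.59 ± 0.26 in DMSO 12 h (SD, n = 3), which did not overlap (exact permutation p = 0.1). At 48 h it was −1.86 ± 0.39 in GSI and −2.36 ± 0.39 in DMSO, which did (exact permutation p = 0.3).

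KDM6A and KDM6B remove methyl groups from H3K27, the mark set by Polycomb complexes. KDM6B (ENSG00000132510) had 11810, 7387 and 9867 normalised counts in GSI 12 h, against 6114, 5661 and 5175 in DMSO 12 h. In GSI 48 h it had 13008, 7720 and 10175, against 6245, 5426 and 5262 in DMSO 48 h. Every GSI library was above every DMSO library, and the libraries numbered 2 were again the lowest of the GSI groups. The log2 fold change was 0.75 (SE 0.18, limma adjusted p = 0.0133) at 12 h and 0.84 (SE 0.18, limma adjusted p = 0.0207) at 48 h. The 12 h call was lost without the GSI 12 h library numbered 1 (0.60, limma adjusted p = 0.0676). The 48 h call was lost without the GSI 48 h library numbered 1 (0.65, adjusted p = 0.103) or 3 (0.83, 0.0843), or the DMSO 48 h library numbered 1 (0.0511), 2 (0.0666) or 3 (0.0519).

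KDM6A (ENSG00000147050), the H3K27 demethylase of the KMT2C and KMT2D complexes, had 5529, 5041 and 6532 normalised counts in GSI 12 h, against 4991, 5274 and 5320 in DMSO 12 h. The counts at 48 h were 5608, 5620 and 6381 in GSI and 5289, 5565 and 5683 in DMSO. The groups overlapped at both times. The log2 fold changes were 0.13 (95% interval −0.09 to 0.34) and 0.09 (−0.12 to 0.30), with limma adjusted p = 0.376 and 0.575. The log2 ratio of KDM6B over KDM6A was 0.75 ± 0.30 in GSI 12 h and 0.12 ± 0.17 in DMSO 12 h (SD, n = 3), and 0.78 ± 0.39 in GSI 48 h and 0.03 ± 0.18 in DMSO 48 h. The ratios did not overlap at either time (exact permutation p = 0.1, adjusted 0.2).

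KDM7A (ENSG00000006459), which acts on dimethylated H3K9 and H3K27, showed the largest fold change of the 10 genes at both times. It had 12343, 3303 and 13180 normalised counts in GSI 12 h, against 1278, 1756 and 1774 in DMSO 12 h, and 12495, 3750 and 8976 in GSI 48 h, against 1098, 1898 and 1832 in DMSO 48 h. The groups did not overlap, and the GSI libraries numbered 2 lay nearer to the DMSO libraries than to the other GSI libraries. The log2 fold change was 2.36 (SE 0.49, limma adjusted p = 0.00708) at 12 h and 2.26 (SE 0.49, limma adjusted p = 0.0205) at 48 h, above 99.6% and 99.8% of all genes. At 12 h it was called under each of the 21 alternatives and was 3.01 without the GSI 12 h library numbered 2. The 48 h call was lost without the GSI 48 h library numbered 1 (1.89, limma adjusted p = 0.106) or 3 (2.13, 0.0899), or the DMSO 48 h library numbered 1 (2.01, 0.0693). KDM7A-DT (ENSG00000260231), the transcript annotated as divergent from KDM7A and chosen after its values were seen, had 1396, 406.2 and 1159 counts in GSI 12 h, against 135.3, 105.9 and 135.3 in DMSO 12 h. The 48 h counts were 1404, 227.1 and 595.8 in GSI and 124.6, 103.9 and 130.2 in DMSO, again without overlap and lowest in the GSI libraries numbered 2.

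**Figure D3:**
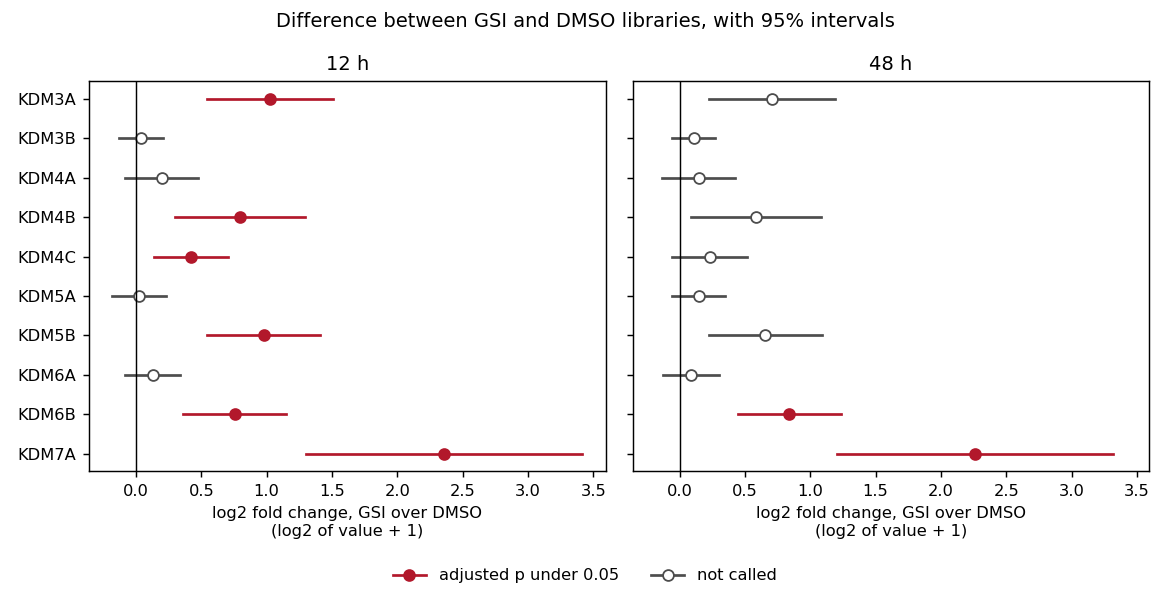
Log2 fold change of GSI over DMSO at 12 h (left) and 48 h (right) for each demethylase, on the log2(value + 1) scale, with 95% intervals from the limma fit. Filled red points were called at an adjusted p under 0.05, 6 genes at 12 h and 2 at 48 h, and open grey points were not.

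Within same-numbered libraries, the log2 difference of GSI from DMSO was smallest at number 2 in 8 of the 10 members at 12 h and in 9 of the 10 at 48 h. The share over all genes was not computed, and at 12 h the numbers did not pair the libraries by the rule given under processing. Members with little difference were counted too, such as KDM4A at 48 h (0.124, 0.112 and 0.201). For KDM7A the difference was 3.27, 0.91 and 2.89 at numbers 1, 2 and 3 at 12 h, and 3.51, 0.98 and 2.29 at 48 h. For KDM3A it was 1.25, 0.37 and 1.46 at 12 h, and 0.95, 0.25 and 0.92 at 48 h. A list of 30 genes known to be induced by hypoxia also had its lowest GSI median in the libraries numbered 2. Relative to the mean of all libraries, its median was 1.57, 0.20 and 1.75 on the log2 scale in GSI 12 h, against −0.85, −0.83 and −0.70 in DMSO 12 h, and 1.101, −0.211 and 0.644 in GSI 48 h, against −0.89, −0.97 and −0.60 in DMSO 48 h. Of this list 27 of 30 genes were called higher in GSI at 12 h and 13 of 30 at 48 h, with 0 lower at either time, and its median log2 fold changes were 2.16 and 1.44. The part of the hypoxia genes, or of what set the libraries numbered 2 apart, in the demethylase differences was not tested. Without both GSI libraries numbered 2, KDM3A, KDM4B, KDM4C, KDM5B, KDM6B and KDM7A were called at both times, against 29.8% of all genes at 12 h and 21% at 48 h, with log2 fold changes of 1.35, 1.06, 0.57, 1.02, 0.94 and 3.01 at 12 h. Leaving out the libraries with the smallest differences raises such values by construction, and these calls are no support for the differences.

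**Figure D4:**
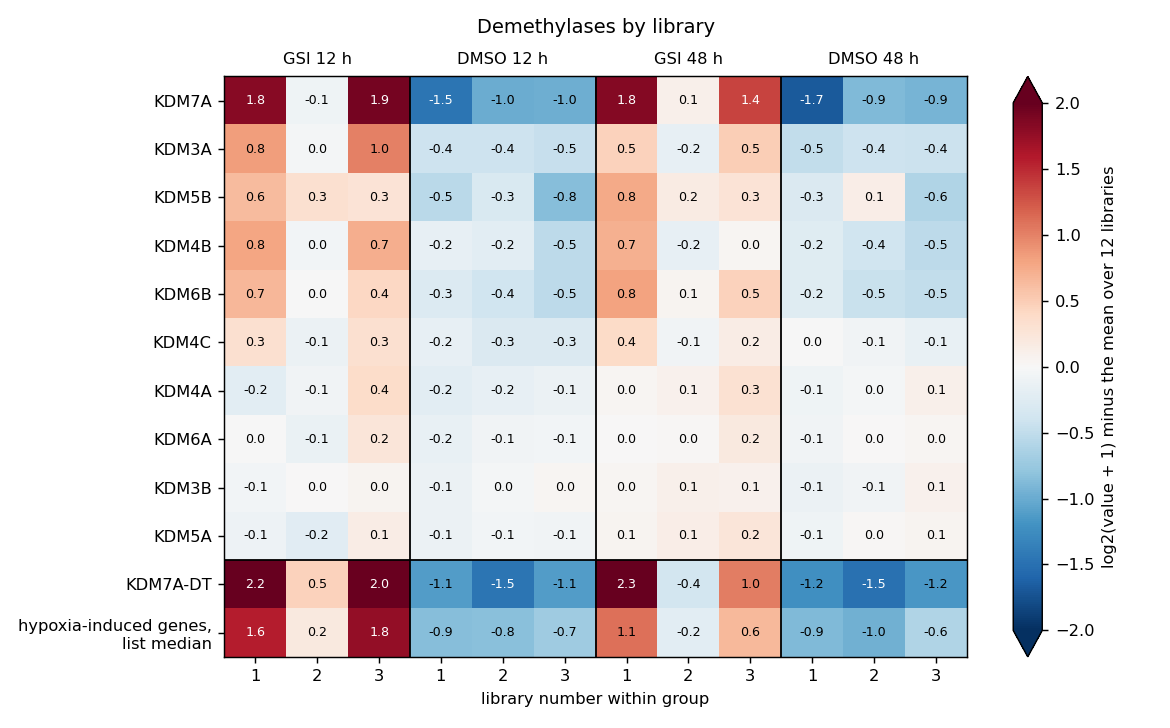
Log2(value + 1) of the 10 demethylases, the transcript KDM7A-DT and the median of 30 hypoxia-induced genes in each library, minus the mean over the 12 libraries (colour, saturated at 2, and printed value). Columns are libraries 1 to 3 of GSI 12 h, DMSO 12 h, GSI 48 h and DMSO 48 h. The GSI libraries numbered 2 were paler than the other GSI libraries for KDM7A, KDM3A and the hypoxia-induced genes.

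The time comparisons asked whether the demethylases changed between 12 and 48 h within a treatment. None of the 10 was called in DMSO 48 h against DMSO 12 h, where 4.53% of all genes were called, and none in GSI 48 h against GSI 12 h, where 3.98% were. EdgeR and DESeq2 also called none of the 10 in either. Of all 19281 genes they called 931 and 1560 in DMSO, and 740 and 1261 in GSI. At an unadjusted limma p under 0.05, 0 members passed in DMSO and 1, KDM5A, in GSI. Of all 19281 genes, 3364 passed in DMSO and 3092 in GSI. Same-numbered libraries of a treatment deviated together over time, and with the replicate number as a block within treatment, which called 29.2% of all genes in DMSO and 28.8% in GSI, some members passed. In DMSO, KDM5B (log2 0.31, limma adjusted p = 0.00242) and KDM4C (0.18, adjusted p = 0.0254) were higher at 48 h. In GSI, KDM5A was higher at 48 h (0.21, adjusted p = 0.00861), while KDM3A (−0.34, adjusted p = 0.00188) and KDM4B (−0.29, adjusted p = 0.0403) were lower. KDM6A, KDM6B, KDM7A, KDM3B and KDM4A were called in neither fit. Without both GSI libraries numbered 2, KDM3A was called lower over time in GSI (−0.44, limma adjusted p = 0.0208), where 2.21% of all genes were called. This value depended on the libraries kept, being −0.65 when library 2 of GSI 12 h alone was left out (adjusted p = 0.0411), −0.13 when library 3 of GSI 12 h was (0.816) and −0.12 when library 2 of GSI 48 h was (0.840).

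The difference of GSI from DMSO at 48 h was tested directly against that at 12 h. Limma called 0 of the 10 members and 0 of all genes, although 875 genes, 0 of them members, had an unadjusted p under 0.05. EdgeR called 0 genes and DESeq2 61, again with 0 members. The largest member differences were those of KDM5B, −0.32 (95% interval −0.93 to 0.29), and KDM3A, −0.32 (−0.997 to 0.36), each with a limma adjusted p = 0.999, and that of KDM7A was −0.10 (−1.59 to 1.40). With the replicate number as a block within treatment the adjusted p was 0.0509 for KDM5B and 0.0534 for KDM3A, where 6.1% of all genes were called. A call at 12 h and none at 48 h, as for KDM3A, KDM4B, KDM4C and KDM5B, is therefore not shown to be a difference between the times.

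The other genes of histone lysine methylation were described from lists. Of 21 further lysine demethylases and Jumonji proteins, 20 were kept, and 0 were called higher and 4 lower in GSI at 12 h, with a median log2 fold change of −0.12. This share called is close to the 21.5% over all genes. The 4 were RIOX2 (−0.74, SE 0.15, limma adjusted p = 0.00632), a ribosomal oxygenase, JMJD8 (−0.61), JMJD4 (−0.51), a hydroxylase of the translation termination factor eRF1, and PHF2 (−0.28), a relative of KDM7A. At 48 h RIOX2 alone passed (−0.58, limma adjusted p = 0.0332). JARID2, a Jumonji protein of Polycomb complexes without demethylase activity, was higher over time in GSI (0.43) and in DMSO (0.52), and RIOX2 was lower over time in DMSO (−0.62). PHF8, another relative of KDM7A, had 6592 ± 245 counts in GSI 12 h and 7382 ± 220 in DMSO 12 h (SD, n = 3) and was not called.

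Enzymes that set the marks, and partners of the demethylases, were read in the same way. Of 6 H3K4 methyltransferases kept, SETD1B (−0.75), SETD1A (−0.36) and KMT2D (−0.40) were called lower in GSI at 12 h. At 48 h limma, edgeR and DESeq2 called 0, with 2 at an unadjusted p under 0.05. Of 7 H3K9 methyltransferases, PRDM2 was called lower at 12 h (−0.32), and at 48 h limma and edgeR called 0 and DESeq2 1, with 1 at an unadjusted p under 0.05. Of 4 H3K27 methyltransferases and their relatives, limma, edgeR and DESeq2 called 0 at 12 h, also at an unadjusted p under 0.05, and EZH1 was higher at 48 h (0.31, limma adjusted p = 0.0288). Of 5 H3K36 methyltransferases the 3 tools called 0 at either time, while 2 at 12 h and 1 at 48 h had an unadjusted p under 0.05. Of 8 subunits of the complex that holds KDM6A, WDR5 (−0.55) and KMT2D were lower at 12 h, and at 48 h limma and edgeR called 0 and DESeq2 1, with 2 at an unadjusted p under 0.05. Of 17 genes for the supply of 2-oxoglutarate and of its competitors, limma called 0 at either time, with medians of −0.06 and −0.13 and 5 genes at an unadjusted p under 0.05 each time. EdgeR and DESeq2 called 1 each at 12 h and 0 at 48 h. Of all 19281 genes, 7098 at 12 h and 5768 at 48 h had an unadjusted limma p under 0.05.

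**Figure D5:**
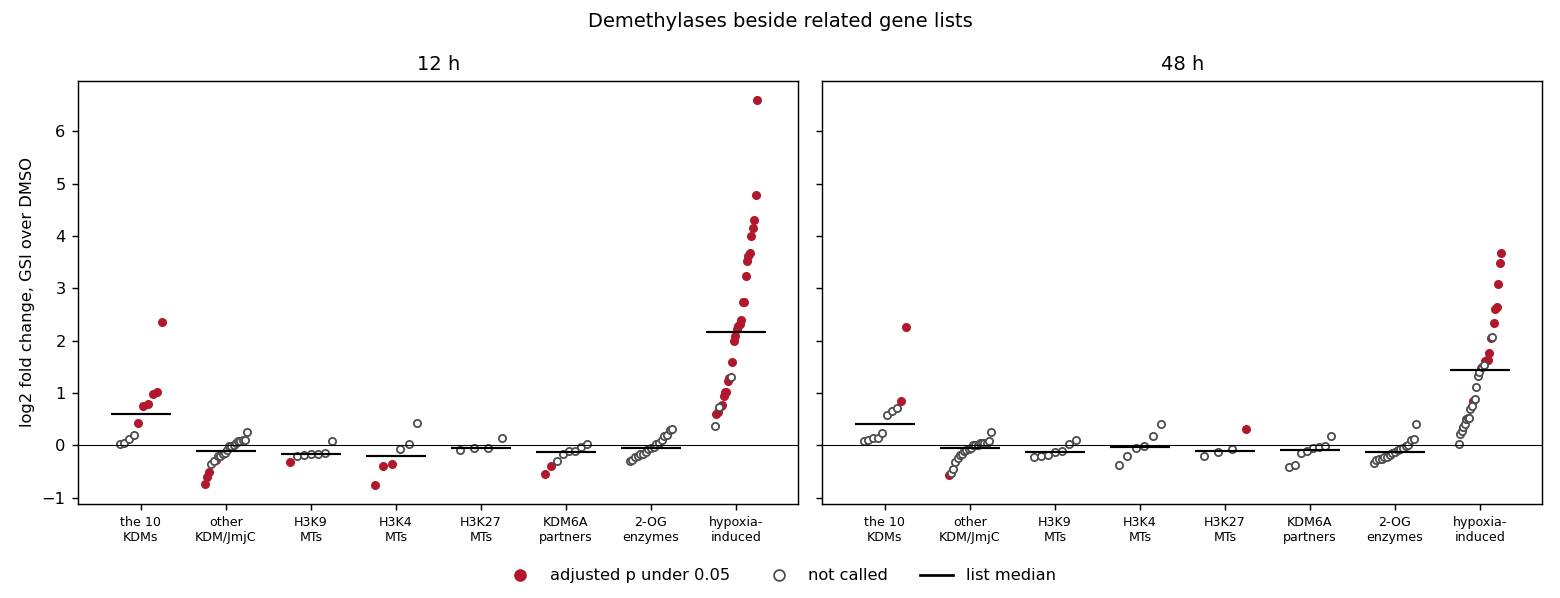
Log2 fold change of GSI over DMSO at 12 h (left) and 48 h (right) for the 10 demethylases (the 10 KDMs) and for 7 related lists, where MTs are methyltransferases and 2-OG is 2-oxoglutarate. Each dot is a gene, filled red where called at an adjusted p under 0.05, and black lines are list medians, 0.59 for the 10 demethylases at 12 h and −0.12 for the other KDM and Jumonji genes.

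Over the 12403 genes with a mean value of at least 100, those whose pattern over the 12 libraries was most like that of a member were found by Pearson's r of log2 values. They are given for KDM3A, KDM7A and KDM4B, picked after the values were seen. For KDM3A they were PDK1 (r = 0.992), the kinase that inhibits pyruvate dehydrogenase, PFKFB3 (0.985), a regulator of glycolysis, and RLF (0.983), the first 2 of which belong to the hypoxia list. With group means removed, r was 0.984 for PDK1 and 0.952 for PFKFB3. For KDM7A they were ZNF160 (0.987), RNF103 (0.984) and BIRC3 (0.983), an inhibitor of apoptosis. For KDM4B they were FUT11 (0.970), ANKZF1 (0.968) and CELSR3 (0.963). The 12 libraries share their groups, their scaling and the libraries that stood apart, so that these values are descriptions of 12 points that are not independent.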

How the data were processed

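The authors' tools, per the submitters' processing notes, were TopHat2 2.0.10 with hg19 among the builds named, HTSeq 0.6.1, FastQC 0.10.1 and DESeq2 (version not given). Settings, annotation and strand use in counting are not given in the sources available, so reads of antisense or overlapping genes may be shared. The deposited table holds a signal, namely each gene's read count after division by the library's size factor. In each library 100% of values were whole multiples of the smallest one within 0.01 reads, so whole reads were recovered. On these, edgeR 4.0.16's quasi-likelihood test called 4201 genes for GSI against DMSO at 12 h, 1919 at 48 h, 931 over time in DMSO and 740 in GSI. Totals ranged from 73939612 to 160702764 reads.

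Identifiers were matched to symbols through a gene name table (50127 of 62069 matched). The filter kept 19281 genes, those with 10 or more in 3 or more libraries. Limma 3.58.1 (R 4.3.3), its prior following a trend, was fitted to log2(value + 1) with group means and no block, over the 12 libraries together, and p-values were adjusted by Benjamini-Hochberg over all genes kept. Fold changes on this scale understate changes of low genes. Adjusted p-values in the text come from this fit unless another is named. The code was tested on simulated data.

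Library numbers come from the labels. Deviations from group means of same-numbered libraries correlated at 0.578, 0.612 and 0.545 over time in DMSO, 0.400, 0.545 and 0.466 over time in GSI, 0.103, 0.157 and 0.104 between GSI and DMSO at 48 h, and 0.096, 0.272 and 0.068 at 12 h. By the rule that every pair exceed 0.1, numbers pair the libraries in the first 3 comparisons and not at 12 h. The split of 48 h from 12 h is narrow, with lowest values of 0.103 and 0.068. At number 2 the correlation was higher at 12 h (0.272) than at 48 h (0.157). The main fit had no block in any comparison.

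The members and lists were chosen with earlier results of these data known. All 10 members are described with values in every library. From each other list, up to 4 genes per comparison were named among those called, by smallest p. PHF8, which was not called, was named outside this rule, and no gene of the NOTCH1 target or hypoxia lists was named by it. From the most similar genes 3 each were named for KDM3A, KDM4B and KDM7A, picked after their values were seen. Those of the other 7 members are not reported here. Y-linked genes were left out. Exon lengths and overlaps are from exon coordinates within GENCODE 29, on another build than the files. Its transcript starts were also used to end the promoter stretches shown. No coordinate was matched to the deposited values, which were joined by gene identifier. Promoters are RefSeq's. Alternatives covered the pseudocount, the low-value filter, the groups fitted, replicate blocks, upper-quartile and TMM scaling, edgeR, DESeq2 1.42.0 and leaving out libraries.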

Additional observations from a re-analysis of the deposited data

How the results depend on the processing

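At 12 h the number of demethylases called was 5 or 6 under the alternatives that kept all libraries. Those alternatives called 2607 to 6951 of all genes. With 1 library left out the number of demethylases called was 3 to 6, the 3 when library 1 of GSI 12 h was absent. At 48 h, against 2, it reached 4 when the fit held only those groups, 5 with the replicate block across groups, 5 with DESeq2 and 6 without both GSI libraries numbered 2, and 0 to 4 with 1 library left out. Leaving out library 1 or 3 of GSI 48 h or library 1 of DMSO 48 h gave 0, library 3 of DMSO 48 h gave 1 and library 2 of GSI 48 h gave 4. Over time in DMSO it was 2 with the replicate block within treatment and 0 otherwise. Over time in GSI it was 3 with that block, 1 without both GSI libraries numbered 2, and 0 to 1 with 1 library left out. For the difference of GSI from DMSO at 48 h against that at 12 h, it was 0 under each alternative run. The block changed no member call at 12 h and none other than those given beside the results. No call of a member changed direction. Counts of all genes with 1 library left out are not given here. The member counts in those settings therefore have no share over all genes beside them. The cause of these shifts was not tested.

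Over all genes, the count at 12 h was 4144, 2607 with only the groups compared and 6951 with the replicate block. By the rule given under processing, the numbers did not pair the libraries at 12 h. At 48 h it was 1866, 5261 with the block and 3242 with DESeq2. Over time it was 874 in DMSO, against 2368 with the block across groups, 5622 with the block within treatment and 1560 with DESeq2, and 768 in GSI, against 1941, 5544 and 1261, with 477 for only the groups compared and 427 without both GSI libraries numbered 2. Upper-quartile scaling turned the 12 h split of 1943 higher and 2201 lower into 2536 and 1585, and the 48 h split of 834 and 1032 into 1220 and 682, while the 6 members called at 12 h remained higher. The lowest member value rested on 1384 reads, and neither depth nor the number of libraries per group was varied beyond leaving libraries out.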
